A study of Mus musculus with 28 samples.

Results

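Coenzyme A carries acyl groups through fatty acid oxidation, fatty acid synthesis and the citrate cycle. Cells make it from pantothenate, which is vitamin B5, from the amino acid cysteine and from ATP. Pantothenate kinases start the pathway, phosphopantothenoylcysteine synthetase then joins cysteine to the phosphorylated vitamin, and a decarboxylase, an adenylyltransferase and a final kinase complete the molecule. The pantetheinase Vnn1 works on a breakdown product and returns pantothenate and cysteamine. Because cysteine is a direct substrate, the genes of this route were described here in intestinal epithelium of mice given its oxidised dimer, cystine, in the diet.

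The 10 genes were chosen by name from the pathway, with earlier results of these data known. They were the pantothenate kinase family genes Pank1, Pank2, Pank3 and Pank4, then Ppcs, Ppcdc, Coasy, Dcakd, Vnn1 and the transporter gene Slc25a42. All 10 were found among the 54354 genes counted, and all 10 passed the filter on low counts that kept 12495 genes for testing. Every group came from mice with an Lgr5-GFP reporter, so that fluorescence follows the activity of Lgr5, a receptor gene of crypt stem cells. The groups were Lgr5-high cells on the cystine diet, Lgr5-high cells on the control diet, Lgr5-low cells on the cystine diet and Lgr5-low cells on the control diet, with 7 RNA sequencing libraries each, 28 in all. The dose and length of the diets and the age and sex of the mice are not given in the labels. Whether the RNA came from organoids, as the extraction protocol in the labels has it, or from cells taken from small intestine, as the design text has it, was not settled here.

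The host genes of the family also carry microRNA genes, shown here because they tie Pank1, Pank2 and Pank3 together by sequence. In the GENCODE M21 annotation, Mir107 lies in an intron of Pank1, Mir103-2 in an intron of Pank2 and Mir103-1 in an intron of Pank3. In GRCm38.p6 (RefSeq), the mature arm of Mir107 is at chr19:34820700-34820722 (minus strand). That of Mir103-2 is at chr2:131288103-131288125 (plus strand), and that of Mir103-1 at chr11:35782447-35782469 (plus strand). Mir103-1 and Mir103-2 give the same mature sequence. No microRNA gene of the GENCODE M21 annotation lies in Pank4. The mature sequences follow 5′ to 3′, with the seed, bases 2 to 8, in capitals.
mmu-miR-107-3p: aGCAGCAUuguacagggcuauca
mmu-miR-103-3p: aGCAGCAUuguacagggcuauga
Both have the seed GCAGCAU, and over 23 bases they differ by the substitution G22C, with the miR-103-3p base first and positions counted from the 5′ end. These libraries were selected for poly(A) RNA and the 3 microRNA genes had 0 counts in all 28, so their mature products were not measured and the values below are those of the host genes.

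Depth, the sum of counts in a library, lay between 2.75 and 21.5 M (M for mega). Its median was 5.32 M for Lgr5-high cystine against 15.4 M for Lgr5-high control, and 14.8 M for Lgr5-low cystine against 7.3 M for Lgr5-low control. Lgr5 itself, the check of the sort, averaged 25.8 ± 7.89 and 35.0 ± 9.06 CPM in Lgr5-high cystine and control libraries and 6.76 ± 2.89 and 4.19 ± 3.61 CPM in the Lgr5-low ones (SD, n = 7 each). CPM are counts per M after scaling by TMM factors, which adjust library sizes for composition. The libraries also differed in Xist, the RNA of the inactive X chromosome. Those above 50 CPM are called the female class here (18 libraries) and the others the male class (10 libraries: control replicates 1 to 3 and cystine replicates 1 and 2 of both populations). This division was made after the data had been seen. It cannot be told apart from replicate number, and depth moved with it, with a median of 14.5 M counts in the female class and 6.46 M in the male class.

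No coenzyme A gene passed the test for diet in either population. Per length of merged exon, Ppcs was the highest of the 10 genes and Slc25a42 the lowest. Before division by length, Ppcs was not the highest in any group. Pank3 was the member with the lowest p between the populations. When both diets were averaged, a comparison added after the data had been seen, Pank3 was lower in Lgr5-high than in Lgr5-low cells. In that comparison 8.8% of all genes passed. Pank3 did not pass on either diet alone, and within the male class the averaged log2 fold change was -0.34 ± 0.42 and did not pass. Vnn1 was higher in the female than in the male class of libraries by edgeR, in a comparison that 17.1% of all genes passed. That comparison was also added after the data had been seen. Vnn1 did not pass it with limma-voom or without the libraries under 5 M counts.

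Levels can be compared between genes only per length, so CPM were divided by the length of each gene's merged exons in kb. This length takes in every annotated exon, and which exons were used was not measured. Ppcs has the shortest merged length, 1605 bases from 3 transcripts, against 5803 from 14 for Ppcdc. The order therefore depends on the annotation. In Lgr5-high control libraries Ppcs averaged 14.5 CPM and Ppcdc 17.4 CPM before the division. Over the 28 libraries Ppcs, which encodes the enzyme that adds cysteine, averaged 10.8 ± 3.46 CPM per kb (SD, n = 28). Coasy, whose bifunctional product carries out the last steps, averaged 5.42 ± 2.24 and Vnn1 5.08 ± 3.52 CPM per kb. These 3 genes lead the order, and the gap between Ppcs and Coasy was larger than the SD of either.

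Pank2 averaged 3.61 ± 1.71, Ppcdc 3.18 ± 1.02 and Pank3 2.84 ± 1.46 CPM per kb over the same libraries. Dcakd, which encodes a protein with a dephospho-CoA kinase domain, averaged 2.30 ± 1.09, Pank1 2.05 ± 0.839 and Pank4 1.70 ± 1.10 CPM per kb. Neighbours in this order from Coasy down to Pank4 differed by less than the larger of their SDs. Slc25a42, whose product carries coenzyme A into mitochondria, averaged 0.168 ± 0.158 CPM per kb, below Pank4 by more than the SD of either.

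**Figure D1:**
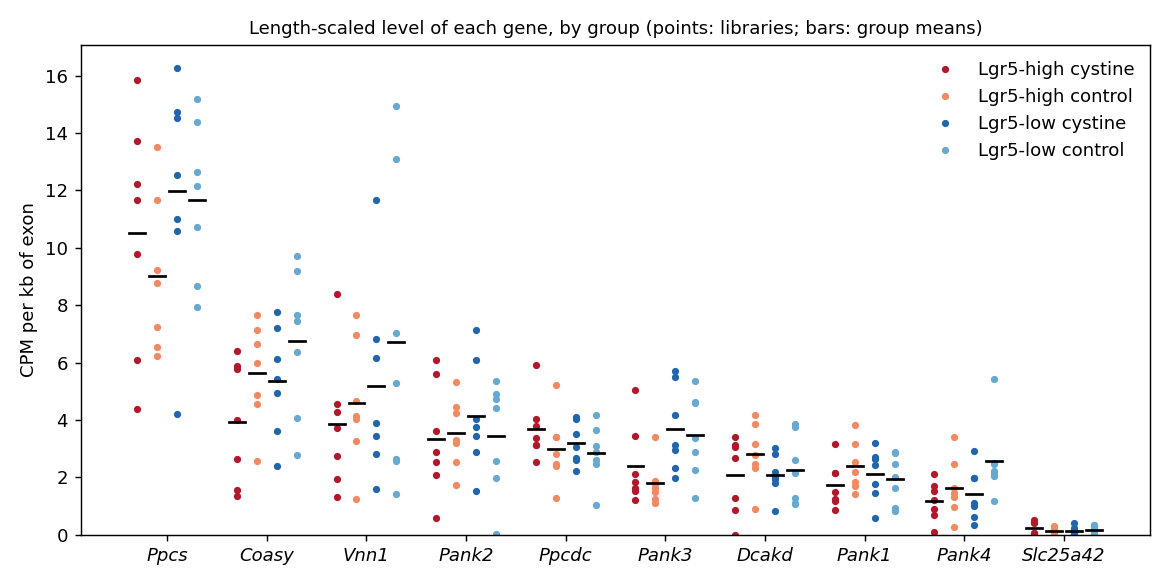
Level of each gene in CPM per kb of merged exon (y axis), ordered along the x axis by the mean over 28 libraries. Points are libraries, colours the 4 groups and bars the group means. Ppcs is highest with a mean of 10.8 CPM per kb and Slc25a42 lowest with 0.168 CPM per kb.

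The enzyme made from Ppcs uses cysteine as a substrate. In Lgr5-high cells Ppcs ranged from 7.04 to 25.4 CPM on the cystine diet (median 18.7), against 9.99 to 21.7 CPM on the control diet (median 14.1). In Lgr5-low cells it ranged from 6.74 to 26.1 CPM on the cystine diet (median 20.1), against 12.7 to 24.4 CPM on the control diet (median 19.5). The 2 diets overlapped in both populations, with 5 of 7 cystine libraries above the control median in Lgr5-high and 4 of 7 in Lgr5-low cells. Ppcs differed by a log2 fold change of 0.22 ± 0.29 (SE; 95% interval -0.36 to 0.79) between diets in Lgr5-high cells and of 0.04 ± 0.28 (-0.53 to 0.62) in Lgr5-low cells. The adjusted p from edgeR's quasi-likelihood test was 1.0 in Lgr5-high cells and 0.9998 in Lgr5-low cells, and the same held for every other member.

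Across all genes tested, 0.168% passed for diet in Lgr5-high cells (21 genes), 0.0% in Lgr5-low cells and 0.0% for the difference between the diet effects of the populations. Of the 10 coenzyme A genes 0 passed in each of these 3 comparisons. At an unadjusted p under 0.05 the members again numbered 0 in each. Of all genes, 2.15% were higher and 2.13% lower at that p for diet in Lgr5-high cells, and 2.97% and 3.32% lay under it for diet in Lgr5-low cells and for the difference. Neither DESeq2 nor limma-voom called a member in any of the 3. Of 12495 genes, DESeq2 called 89, 4 and 0 in these comparisons and limma-voom 39, 1 and 5. The members' median log2 fold change for diet was -0.18 in Lgr5-high cells and -0.04 in Lgr5-low cells, beside -0.02 and -0.004 over all genes. No member had diet groups that did not overlap, beside 0.216% of all genes in Lgr5-high cells and 0.064% in Lgr5-low cells.

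Among the pantothenate kinases, Pank1 (chr19:34806940-34879455, GRCm38) ranged from 7.0 to 26.1 CPM in Lgr5-high cystine libraries (median 12.3), against 11.7 to 31.6 CPM in Lgr5-high control libraries (median 18.0). Of the 7 Lgr5-high cystine libraries 6 lay below the median of the Lgr5-high control libraries, and the ranges overlapped. The log2 fold change was -0.45 ± 0.33 (-1.12 to 0.23). In Lgr5-low cells Pank1 ranged from 4.88 to 26.5 CPM on the cystine diet (median 20.1), against 6.75 to 23.9 CPM on the control diet (median 16.6), a log2 fold change of 0.13 ± 0.33. The difference between the Pank1 diet effects was -0.57 ± 0.47 (-1.52 to 0.38), and its adjusted p was 0.9998 by edgeR.

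Pank3 (chr11:35769484-35791285) ranged from 8.89 to 37.2 CPM in Lgr5-high cystine libraries (median 13.6), against 8.05 to 25.1 CPM in Lgr5-high control libraries (median 12.1). Lgr5-low cystine libraries had 14.6 to 42.2 CPM (median 23.1), against 9.54 to 39.4 CPM in Lgr5-low control libraries (median 24.7). The highest Lgr5-high cystine values, 37.2 and 25.4 CPM, came from replicates 6 and 4, and the other 5 lay between 8.89 and 15.5 CPM. The diet log2 fold change of Pank3 was 0.43 ± 0.32 (-0.22 to 1.09) in Lgr5-high and 0.09 ± 0.32 (-0.56 to 0.73) in Lgr5-low cells. The difference between them was 0.34 ± 0.45 (-0.57 to 1.26).

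Pank2 (chr2:131262495-131299188) ranged from 2.79 to 29.8 CPM in Lgr5-high cystine libraries (median 14.1), against 8.54 to 26.1 CPM in Lgr5-high control libraries (median 16.2). In Lgr5-low cells it ranged from 7.47 to 35.1 CPM on the cystine diet (median 18.4), against 0.152 to 26.3 CPM on the control diet (median 21.6). The lowest of these, replicate 3 of the Lgr5-low control group, rested on 1 count. The diet log2 fold changes were -0.09 ± 0.47 in Lgr5-high and 0.27 ± 0.47 in Lgr5-low cells. Pank2 overlaps Rnf24 on the opposite strand and Gm14233 on its own strand, and how reads of the shared stretches were divided is not known.

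Pank4, whose protein lacks the kinase activity of its relatives and acts as a phosphatase on a pathway intermediate, ranged from 0.349 to 7.32 CPM in Lgr5-high cystine libraries (median 4.24), against 0.976 to 11.9 CPM in Lgr5-high control libraries (median 5.04). Lgr5-low cystine libraries had 1.15 to 10.1 CPM (median 3.85), against 4.07 to 19.0 CPM in Lgr5-low control libraries (median 7.72). In Lgr5-low cells 6 of 7 cystine libraries lay below the control median, with overlap. The diet log2 fold changes were -0.47 ± 0.51 (-1.5 to 0.57) in Lgr5-high and -0.84 ± 0.50 (-1.86 to 0.18) in Lgr5-low cells.

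Downstream of Ppcs, the decarboxylase gene Ppcdc ranged from 14.6 to 34.4 CPM in Lgr5-high cystine libraries (median 19.6), against 7.34 to 30.3 CPM in Lgr5-high control libraries (median 16.4). In Lgr5-low cells it ranged from 12.9 to 23.8 CPM on the cystine diet (median 17.8), against 6.0 to 24.3 CPM on the control diet (median 16.8). In Lgr5-high cells 6 of 7 cystine libraries lay above the control median, with overlap. The fitted spread of Ppcdc was the smallest of the members, a biological coefficient of variation of 0.359. The diet log2 fold changes were 0.30 ± 0.28 (-0.26 to 0.85) and 0.16 ± 0.28 (-0.40 to 0.72) in Lgr5-high and Lgr5-low cells.

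Coasy ranged from 3.84 to 18.3 CPM in Lgr5-high cystine libraries (median 11.5), against 7.34 to 22.0 CPM in Lgr5-high control libraries (median 17.2). Lgr5-low cystine libraries had 6.89 to 22.2 CPM (median 15.6), against 7.93 to 27.8 CPM in Lgr5-low control libraries (median 21.3). In both populations 6 of 7 cystine libraries lay below the median of the control libraries, and the ranges overlapped. The diet log2 fold changes were -0.51 ± 0.34 (-1.19 to 0.17) and -0.33 ± 0.33 (-1.0 to 0.34). Averaged over both populations, a comparison added after the data had been seen, the value for Coasy was -0.42 ± 0.24 with an unadjusted p of 0.0835 and an adjusted p of 1.0. In that average 0 of 10 members passed, beside 0.16% of all genes, and 0 had an unadjusted p under 0.05, beside 4.21%.

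Dcakd ranged from 0 to 8.69 CPM in Lgr5-high cystine libraries (median 6.85), against 2.25 to 10.6 CPM in Lgr5-high control libraries (median 7.07), with a log2 fold change of -0.44 ± 0.51. In Lgr5-low cells it ranged from 2.15 to 7.74 CPM on the cystine diet (median 5.17), against 2.69 to 9.85 CPM on the control diet (median 5.53). The single 0 was replicate 7 of the Lgr5-high cystine group. Dcakd overlaps Nmt1 and Gm26668 on the opposite strand.

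Slc25a42 was near the limit of detection. It had at most 44 counts in a library and 0 counts in 2 Lgr5-high cystine, 1 Lgr5-high control, 1 Lgr5-low cystine and 2 Lgr5-low control libraries. It averaged 1.3 ± 1.42 CPM in Lgr5-high cystine and 0.822 ± 0.612 CPM in Lgr5-high control libraries (SD, n = 7 each), and 0.859 ± 0.872 CPM in Lgr5-low cystine and 1.05 ± 0.855 CPM in Lgr5-low control libraries. Its log2 fold change for diet in Lgr5-high cells, 0.66 ± 1.03, had an interval from -1.42 to 2.75, so that no difference was detectable at this depth. The difference between its diet effects was 0.96 ± 1.45.

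Vnn1, the pantetheinase gene (chr10:23894688-23905343), ranged from 3.18 to 20.3 CPM in Lgr5-high cystine libraries (median 9.0), against 3.04 to 18.5 CPM in Lgr5-high control libraries (median 9.97). Lgr5-low cystine libraries had 3.81 to 28.2 CPM (median 9.40), against 3.43 to 36.1 CPM in Lgr5-low control libraries (median 12.8). The diet groups overlapped over nearly their whole ranges. The log2 fold changes were -0.27 ± 0.46 (-1.20 to 0.66) in Lgr5-high and -0.36 ± 0.45 (-1.28 to 0.56) in Lgr5-low cells.

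**Figure D2:**
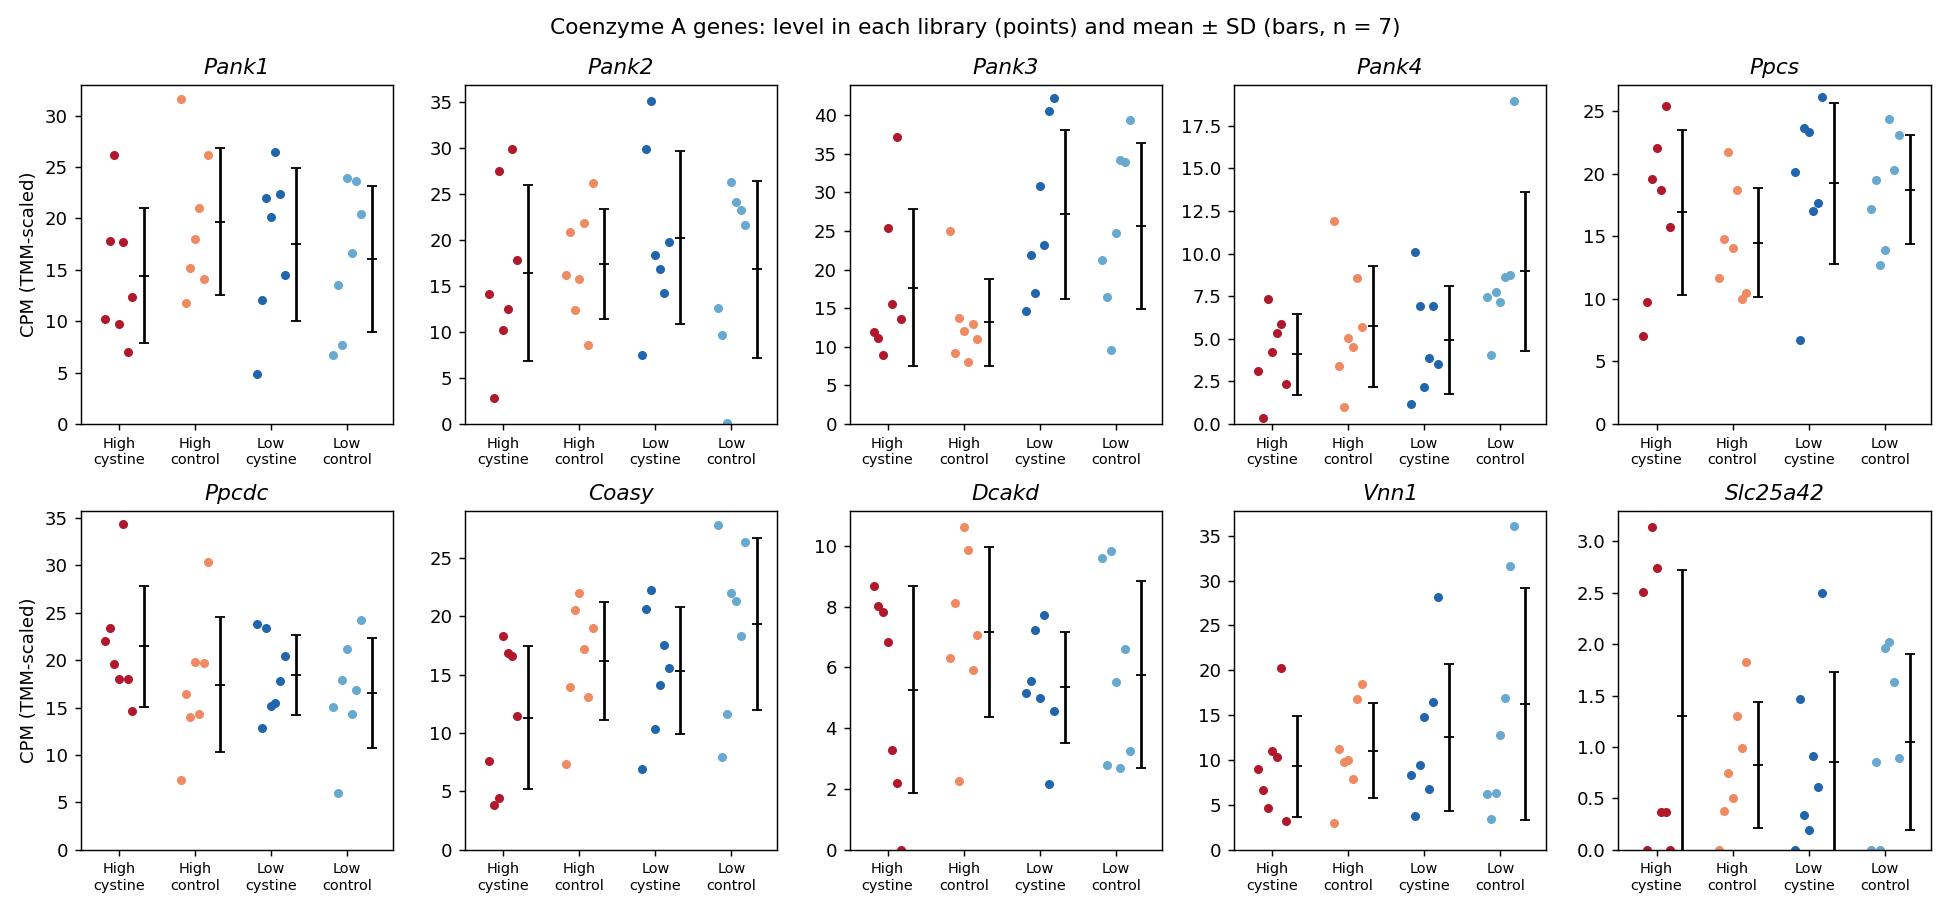
Level of each of the 10 genes in CPM (y axis, own scale per panel) in the 4 groups. Points are libraries and bars the mean ± SD (n = 7), cut at 0 where the SD exceeds the mean. The diet groups overlap in every panel, and Pank3 averages 17.7 and 13.2 CPM in the Lgr5-high cystine and control groups and 27.2 and 25.7 CPM in the Lgr5-low ones.

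Ordering the 4 group means of each gene gives 30 pairs of neighbours, and in 0 of them did the neighbours differ by more than the larger SD. In bulk RNA of sorted cells, fewer cells of a type and less RNA per cell cannot be told apart.

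The populations differed in cell type markers. The summed level of 10 intestinal stem cell markers ranged from 4005 to 7693 CPM in Lgr5-high cystine against 1028 to 2365 CPM in Lgr5-low cystine libraries, and from 3548 to 7258 CPM in Lgr5-high control against 737 to 2788 CPM in Lgr5-low control libraries. Sums of 7 goblet cell markers ranged from 1730 to 5296 CPM over both Lgr5-high groups and from 4374 to 17970 CPM over both Lgr5-low groups. Sums of 7 enteroendocrine markers ranged from 64.6 to 229 CPM and from 277 to 888 CPM over the same groups. The stem cell and enteroendocrine sums did not overlap between the populations, and the goblet cell sums did.

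Sums of 18 enterocyte markers had medians of 7003 and 8444 CPM in Lgr5-high cystine and control libraries and 14250 and 9247 CPM in the Lgr5-low ones, with overlap. For 5 Paneth cell markers the medians were 67080 and 72150 CPM in the Lgr5-high groups and 63150 and 38440 CPM in the Lgr5-low groups, and for 5 tuft cell markers 25.1 and 20.8 CPM against 46.8 and 56.4 CPM. The sum of 10 macrophage markers had a median of 296 CPM in Lgr5-high cystine libraries, against 36.0 CPM in Lgr5-high control libraries, and of 33.4 and 20.4 CPM in Lgr5-low cystine and control libraries. The 11 hepatocyte markers summed to 296 to 1376 CPM over all libraries, 5 T cell markers to 0.506 to 33.5 CPM and 5 stromal markers to 0.453 to 9.48 CPM. A stromal marker was at 0 in all libraries of a group in 3 of the 4 groups, and no other list had a marker at 0 throughout a group. The part of these other cells in the values of the coenzyme A genes was not tested.

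Between Lgr5-high and Lgr5-low cells on the control diet, 1.8% of all genes passed (225 genes), and on the cystine diet 2.64% (330 genes). Of the 10 coenzyme A genes 0 passed on either diet. At an unadjusted p under 0.05, 1 member, Pank3, was found on the control diet and 0 on the cystine diet, where 12.9% and 15.5% of all genes lay under that value. The members' median log2 fold change was -0.30 on the control diet and -0.29 on the cystine diet, beside -0.01 and -0.04 over all genes. Group ranges overlapped for every member, whereas 0.96% of all genes on the control diet and 1.3% on the cystine diet had ranges that did not overlap.

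Pank3 had 13.2 ± 5.61 CPM in Lgr5-high control and 25.7 ± 10.8 CPM in Lgr5-low control libraries (SD, n = 7 each). Of the 7 Lgr5-high control libraries 6 lay below the median of the Lgr5-low control libraries, and the exception was replicate 1 with 25.1 CPM. The log2 fold change was -0.98 ± 0.32 (95% interval -1.63 to -0.32), with an unadjusted p of 0.00444 and an adjusted p of 0.119 by edgeR. On the cystine diet Pank3 had 17.7 ± 10.1 CPM in Lgr5-high and 27.2 ± 11 CPM in Lgr5-low libraries, a log2 fold change of -0.63 ± 0.32 (-1.28 to 0.02) with an adjusted p of 0.344.

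Averaged over both diets, a comparison added after the data had been seen, Pank3 was lower in Lgr5-high cells by a log2 fold change of -0.80 ± 0.23 (-1.27 to -0.34), a ratio between 0.416 and 0.789. Its adjusted p was 0.0200 by edgeR. In this comparison 8.8% of all genes passed (1100 genes, 469 higher and 631 lower), and Pank3 was the 1 member of 10. The call held when each library was left out in turn, with adjusted p between 0.00367 and 0.0407.

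The population difference of Pank3 on the control diet was also taken within each class of libraries. Within the female class, Pank3 averaged 11 ± 2.14 CPM in Lgr5-high control and 33.1 ± 6.10 CPM in Lgr5-low control libraries (SD, n = 4 each), and the ranges did not overlap. That held for 1 of the 10 members in this split and for 15% of all genes. Within the male class it averaged 16.0 ± 8.15 CPM in Lgr5-high control and 15.8 ± 5.89 CPM in Lgr5-low control libraries (SD, n = 3 each). The log2 fold change on the control diet was -1.58 ± 0.34 within the female class (adjusted p = 0.00602 by edgeR) and 0.008 ± 0.52 within the male class (adjusted p = 1.0). In these fits 4.9% of all genes passed within the female class and 0.259% within the male class. The difference between the classes, tested as such, was -1.58 ± 0.57 with an unadjusted p of 0.00825 and an adjusted p of 0.163. On the cystine diet it was 0.04 ± 0.62. Of the members 0 passed this test on either diet, beside 0.592% of all genes on the control and 0.104% on the cystine diet. An unadjusted p under 0.05 was found for 1 member, Pank3, on the control diet and for 0 on the cystine diet, beside 14.2% and 9.73% of all genes.

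Averaged over diets, the Pank3 population difference was -1.10 ± 0.23 within the female class (adjusted p = 0.00169 by edgeR) and -0.34 ± 0.42 within the male class (adjusted p = 0.774), where 11.7% and 2.42% of all genes passed. The male class has 2 libraries per population on the cystine diet and 3 on the control diet.

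The pantetheinase gene Vnn1 had log2 fold changes between the populations of -0.54 ± 0.45 on the control diet and -0.45 ± 0.46 on the cystine diet. Coasy had -0.25 ± 0.33 on the control diet and -0.44 ± 0.34 on the cystine diet. Neither passed the test. The log2 fold changes of the other 7 members, Pank3 aside, lay between -0.65 and 0.31 on the control diet and between -0.32 and 0.61 on the cystine diet.

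**Figure D3:**
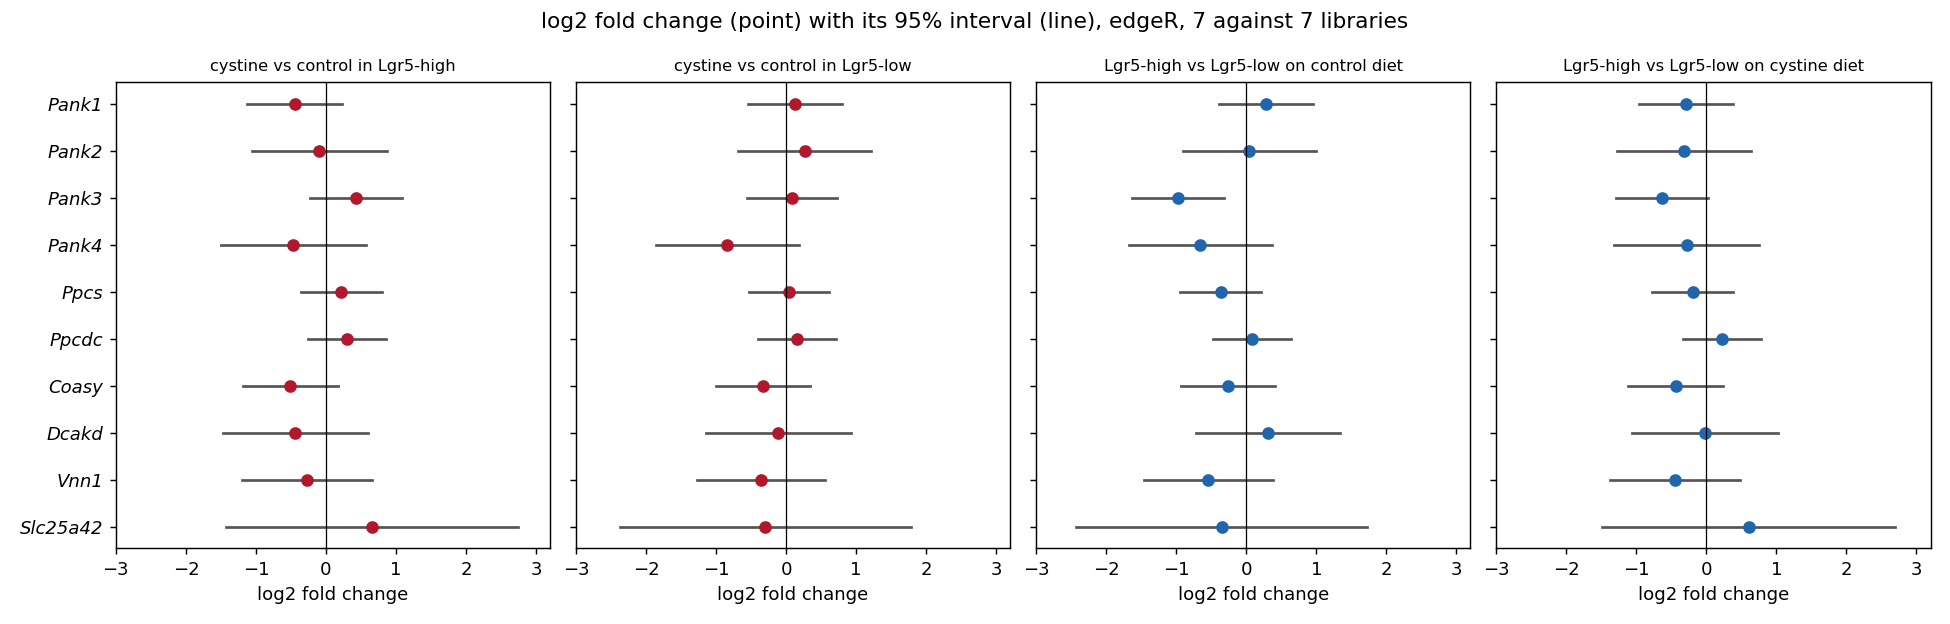
Log2 fold change of each gene (x axis, point) with its 95% interval (line) from edgeR, for cystine against control in Lgr5-high and in Lgr5-low cells and for Lgr5-high against Lgr5-low cells on the control and on the cystine diet (7 libraries against 7). Of the 40 intervals only that of Pank3 between the populations on the control diet, -1.63 to -0.32, lies wholly to one side of 0.

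Vnn1 varied with the class of library. It ranged from 3.18 to 36.1 CPM in the 18 female class libraries (median 13.8), against 3.04 to 11.3 CPM in the 10 male class libraries (median 6.50). The means were higher in the female class in all 4 groups, by the largest margin in Lgr5-low control libraries, where Vnn1 averaged 24.4 ± 11.2 CPM in the female class (SD, n = 4) and 5.35 ± 1.66 CPM in the male class (SD, n = 3). In that group the classes did not overlap for 5 of the 10 members (Vnn1, Pank1, Pank2, Pank3 and Slc25a42), beside 23.6% of all genes. For Slc25a42 the nearest libraries were at the floor. Female class replicate 7 had 0.889 CPM from 3 counts and male class replicate 2 had 0.858 CPM from 4 counts.

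With a mean for each of the 4 groups in the fit, Vnn1 was higher in the female class by a log2 fold change of 1.12 ± 0.31 (adjusted p = 0.00952 by edgeR). In this comparison, also made after the data had been seen, 17.1% of all genes passed, and Vnn1 was the 1 member of 10. At an unadjusted p under 0.05 the members numbered 5 (Vnn1, Pank1, Coasy, Pank2 and Pank3), where 29.5% of all genes lay under that value. Of the 10 members 9 had positive values, Dcakd being the exception, and their median was 0.50, beside 0.16 over all genes. Vnn1 did not pass with limma-voom (0.79, adjusted p = 0.145) or without the libraries under 5 M counts (0.84, adjusted p = 0.110). Pank1 ranged from 7.0 to 26.5 CPM in the female class (median 20.3), against 4.88 to 31.6 CPM in the male class (median 11.9). Pank1, at 0.61 ± 0.24 and an adjusted p of 0.0711 by edgeR, passed under both of these (0.66, adjusted p = 0.0420, and 0.81, adjusted p = 0.00977), where 16.2% and 13.6% of all genes passed.

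The 5 Paneth cell markers summed to a median of 71710 CPM in the female class and 19260 CPM in the male class, and the 18 enterocyte markers to 7934 and 10880 CPM. The part of depth, cell makeup and replicate number in the class difference of Vnn1 was not tested.

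**Figure D4:**
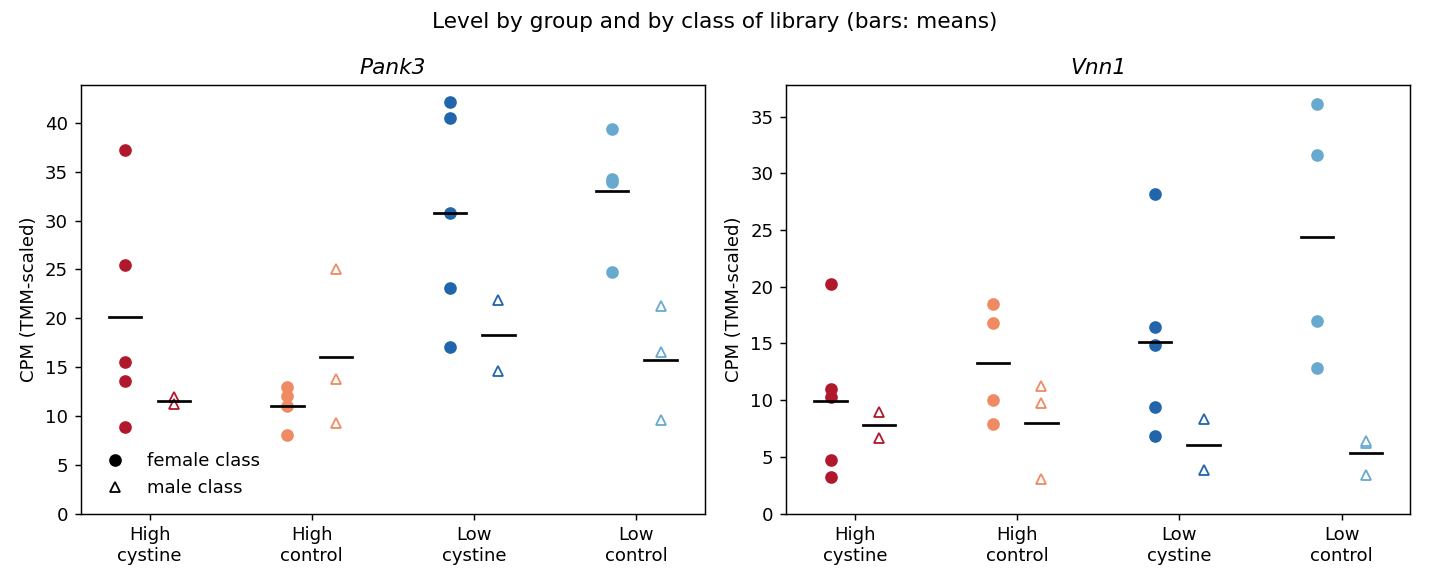
Level of Pank3 and Vnn1 in CPM (y axis) in each group, with filled circles for the female class, open triangles for the male class and bars for means. In Lgr5-low control libraries the female class averages 33.1 CPM of Pank3 and 24.4 CPM of Vnn1, and the male class 15.8 and 5.35 CPM.

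Other genes that handle coenzyme A were read from a list of 30, which covers the vitamin transporter Slc5a6, hydrolases of the Nudt family, users of the phosphopantetheine group such as Fasn, acyl-CoA synthetases and acyl-CoA thioesterases. Of these, 27 were tested, and Vnn3, Acsf2 and Acot12, with 39, 25 and 213 counts over all libraries, were not. For diet in Lgr5-high cells, diet in Lgr5-low cells, the difference between these, and the populations on either diet, 0 of 27 passed. Of all genes 0.168%, 0.0% and 0.0% passed in the first 3. Between the populations 1.8% passed on the control and 2.64% on the cystine diet. At an unadjusted p under 0.05 they numbered 0 for diet in Lgr5-high cells, 1 for diet in Lgr5-low cells, 0 for the difference, and 5 for the populations on each diet. Of all genes 12.9% on the control and 15.5% on the cystine diet lay under that p between the populations. For diet in Lgr5-low cells 2.97% did, and 3.32% for the difference. For diet in Lgr5-high cells 2.15% were higher and 2.13% lower at that p.

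The lowest p values of this list belonged to Acot9 and Acss2. Acot9, a mitochondrial acyl-CoA thioesterase gene, ranged from 0.862 to 25.8 CPM in Lgr5-low cystine (median 7.33) against 14.9 to 46.3 CPM in Lgr5-low control libraries (median 21.5), with a log2 fold change of -1.05 ± 0.39, an unadjusted p of 0.0103 and an adjusted p of 0.9998 by edgeR. Acss2, which makes acetyl-CoA from acetate, ranged from 18.7 to 40.7 CPM in Lgr5-high cystine (median 24.9) against 8.52 to 25.4 CPM in Lgr5-low cystine libraries (median 17.3), with a log2 fold change of 0.73 ± 0.28 and an adjusted p of 0.163.

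Some coenzyme A genes, Pank1 and Vnn1 among them, are known in mouse liver as targets of the fatty acid receptor PPAR alpha, so 13 genes of that receptor's programme were read beside them. For diet 0 of 13 passed in either population, with a median log2 fold change of -0.46 in Lgr5-high and -0.07 in Lgr5-low cells.

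In the comparison of the populations averaged over both diets, 2 of the 27 further coenzyme A genes passed, beside 8.8% of all genes, and they are named here after their values had been seen. Acsl5, a long-chain acyl-CoA synthetase gene, was lower in Lgr5-high cells (-0.74 ± 0.21, adjusted p = 0.0249 by edgeR). Acsm3, a medium-chain acyl-CoA synthetase gene, was higher (0.99 ± 0.30, adjusted p = 0.0291).

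Neither passed within a class of libraries. Acsl5 had a log2 fold change of -0.89 within the female and -0.68 within the male class (adjusted p = 0.0811 and 0.0988 by edgeR), and Acsm3 of 0.63 and 1.78 (adjusted p = 0.214 and 0.133). Acsm3 also missed the threshold without Lgr5-high control replicate 2 (0.94, adjusted p = 0.0526), Lgr5-high cystine replicate 1 (0.90, adjusted p = 0.0647) or Lgr5-low cystine replicate 7 (0.93, adjusted p = 0.0529).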

How the data were processed

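Estimated counts per gene, as whole numbers, are what the authors deposited, in 1 table. The submitters' processing notes name Salmon 1.3.0 for quantification and the build mm10; no source used here gives the transcript annotation or how transcripts were summed. Per the labels' protocols, libraries were poly(A)-selected with a strand-keeping kit. Salmon divides reads of overlapping or similar transcripts by a model.

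edgeR 4.0.16 (R 4.3.3; quasi-likelihood, robust, TMM, filterByExpr) was fitted once to all 28 libraries, with 4 group means. P-values were two-sided and Benjamini-Hochberg adjusted over 12495 genes, with a threshold of 0.05. The class comparison added a class term. DESeq2 1.42.0 and limma-voom (limma 3.58.1) were alternatives, and the closing section gives the others. The fit was also run on simulated counts, drawn independently for each library and with no class difference. That run cannot show how the fit behaves with the class difference seen in these libraries. The common biological coefficient of variation was 0.629. Coordinates and exon lengths came from GENCODE M21 (GRCm38, also called mm10).

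The members and gene lists were chosen with earlier results of these data known. Named genes were all members, and of the other lists those past the threshold in the 5 comparisons of diet and population, or otherwise the 2 of lowest p. Genes of like pattern were to be named for members past the threshold in these 5, and there were 0. No label says that the libraries within a group are from different animals; the p-values therefore rest on differences between libraries, which may be technical. Results for withheld items are not reported here.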

Additional observations from a re-analysis of the deposited data

Results flagged for a closer look

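Of 40 groups of 7 libraries (10 genes in 4 groups), 2 held a library far from the others by Dixon's criterion, which chance meets in about 1 group of 20. Pank3 in Lgr5-high control replicate 1 was 25.1 CPM and the next highest was 13.7 CPM, a gap of 0.666 of the group's range against a critical value of 0.568. Without this library the Pank3 population difference on the control diet passed (-1.21, adjusted p = 0.0457 by edgeR), as did 1.42% of all genes. Pank4 in Lgr5-low control replicate 7 was 19.0 CPM and the next highest was 8.72 CPM, a gap of 0.688 of the range.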

How the results depend on the processing

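The most genes to pass for diet under an alternative was 89 of 12495, with DESeq2 in Lgr5-high cells. No member passed for diet, in either population, averaged over populations or as a difference between populations, under any alternative run. These were no low-count filter, at least 1 CPM in at least 7 libraries, RLE size factors, DESeq2, limma-voom with quality weights, only the compared groups, replicate blocks, a class term, each class alone, omission of the libraries under 5 M counts, and omission of every library in turn. For the populations on the control diet the count of members was 1, Pank3 each time, with limma-voom (-1.25, adjusted p = 0.00625), within the female class and without libraries under 5 M counts (-1.15, adjusted p = 0.0485), where 6.4%, 4.9% and 1.15% of all genes passed. It ranged from 0 to 1 when each library was left out. Pank3 passed without Lgr5-low control replicate 3 (-1.12, adjusted p = 0.0363) or Lgr5-high control replicate 1, where 3.52% and 1.42% of all genes passed. Averaged over diets the count was 0 within the male class, beside 2.42% of all genes. It was 1 under every other alternative fitted, beside 5.52% to 19.0% of all genes. The class count was 1 under every other tool, filter and scaling run, beside 9.28% to 21.8% of all genes. With limma-voom and without libraries under 5 M counts the member was Pank1, not Vnn1. The class count ranged from 1 to 3 when each library was left out, beside 14.3% to 18.2% of all genes. Without Lgr5-low cystine replicate 2, Vnn1 and Pank2 passed, beside 18.2%. Without Lgr5-high cystine replicate 2, Vnn1 and Pank1 passed, beside 16.0%. Without Lgr5-high control replicate 1, Vnn1, Pank1 and Pank3 passed, beside 17.9%.

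Signs turned for values that had not passed. Over the members and the 5 comparisons, 18 of 45 values turned within the male class, 11 of 50 within the female class, 5 of 50 with limma-voom and 35 of 1400 when each library was left out. Among those in the report, within the male class, log2 fold changes turned for Pank3 (diet in Lgr5-high -0.48, difference of diet effects -0.70, populations on control diet 0.0079), Pank1 (diet in Lgr5-low -0.12), Ppcs (-0.98 in Lgr5-high, -0.31 in Lgr5-low), Dcakd (0.56 in Lgr5-high) and Vnn1 (0.17 for diet in Lgr5-low, 0.59 and 0.35 for the populations on control and cystine diet). Within the female class they turned for Pank3 (-0.10), Pank1 (-0.010), Pank2 (-0.20) and Ppcdc (-0.048) for diet in Lgr5-low and Pank2 (0.11) in Lgr5-high. Ppcs for diet in Lgr5-low turned with the class term (-0.037) and Slc25a42 in Lgr5-high with limma-voom (-0.22). Leaving out each library gave ranges across 0 for Pank3 (-0.058 to 0.22), Pank1 (-0.011 to 0.28) and Ppcs (-0.059 to 0.19) for diet in Lgr5-low and Pank2 (-0.29 to 0.059) in Lgr5-high. The causes were not tested.

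Same-numbered libraries of a diet fell in the same class, but the labels do not pair them, so the main fit did not treat them as pairs. Whether these libraries share animals cannot be settled from correlations. Correlations of their deviations from group means ranged from 0.0733 to 0.239 between populations on the control diet (4 of 7 best matched their own number) and from -0.083 to 0.17 on the cystine diet (3 of 7). Between diets they ranged from -0.0509 to 0.108 in Lgr5-high and from -0.0865 to 0.124 in Lgr5-low cells. A replicate block that joined equal numbers across both diets left the members called at 0 for the populations on control diet and at 1 averaged over diets. Of all genes 2.47% and 10.4% passed in these fits. The block also turned Ppcs for diet in Lgr5-low (-0.0075). Counts of 0 to 44 limit Slc25a42.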
